A study of Homo sapiens with 6 samples.

Results

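The ephrins and Eph receptors are described here from RNA sequencing of HCT116 cells, a human colorectal carcinoma line, in which the membrane mucin gene MUC3A was or was not cut with CRISPR. The 10 genes, EFNB1, EFNB2, EFNA1, EFNA3, EFNA4, EPHA1, EPHA2, EPHB2, EPHB3 and EPHB4, were chosen by name with the read counts and guide comparisons of these same libraries in view. Which value decided the choice is not recorded. Their differences between groups are therefore a description. Whether a member passed the threshold of the fit over all genes is stated to place it in that table, and is no independent test of it. Counts were read for 9 of the 10, out of 15284 genes, and all 9 were expressed enough to enter the fit of 12678 genes. EPHA1 was not analysed here.

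Ephrins are ligands held on the cell surface, and Eph receptors are the receptor tyrosine kinases that bind them on a neighbouring cell. A-type ephrins are tied to the membrane by a glycolipid anchor and mostly bind EphA receptors, while B-type ephrins span the membrane and mostly bind EphB receptors, with EphA4 binding both. Binding signals in both directions: "forward" through the receptor's kinase and "reverse" through the ephrin's own tail. In the intestinal crypt, EphB2 and EphB3 are Wnt-driven receptors that keep dividing cells near the crypt base, while ephrin-B1 and ephrin-B2 mark the differentiated cells above them. EphA2 is a receptor of many epithelial cancers, and ephrin-A1 is its best known ligand.

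The 3 groups held 2 libraries each. KO2 and KO1 cells carry lentiCRISPR v2, a lentiviral vector for Cas9 and a guide RNA, with 1 MUC3A guide each. WT cells are the controls. Virus was added at a multiplicity of infection of 10, and puromycin at 2 µg/mL for 72 h selected the infected cells. The controls carry the words wild type and negative control, and a scrambled virus is described, so it is not settled whether WT cells received virus. The labels mention no single-cell cloning. No label ties a group's libraries to separate cultures, and p-values then measure only how these libraries vary, which may be technical. In bulk RNA, fewer cells that express a gene and less RNA per cell cannot be told apart.

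The guides, printed with the genomic PAM in capitals, both match exon 2 of MUC3A on GRCh38. They are shown because they define the 2 knockout groups.
KO2 guide, chr7:100951917-100951936, on the transcript's own strand: ttctccacactccagagaccTGG
KO1 guide, chr7:100952090-100952109, on the opposite strand: gaaggcaaacttggacgtcgGGG
In annotated transcripts of the ephrin and Eph genes, the closest site with an NGG PAM had 6 mismatches to the KO2 guide (in EPHB1, EPHB2 and EPHB4) and 7 to the KO1 guide.

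The promoters of EFNB2, EPHA2 and EPHB2, the 3 members whose transcripts fell in KO2 against WT, are printed next. Each is the 250 bases before the RefSeq gene start on GRCh38.p14, written along the gene's own strand. Capitals mark matches on either strand to 4 motifs: the TCF/LEF core CTTTGA, AP-1 TGANTCA, the GC box GGGCGG and the TATA box TATAAA. No 2 matches overlap.
EFNB2 promoter, chr13:106535663-106535912: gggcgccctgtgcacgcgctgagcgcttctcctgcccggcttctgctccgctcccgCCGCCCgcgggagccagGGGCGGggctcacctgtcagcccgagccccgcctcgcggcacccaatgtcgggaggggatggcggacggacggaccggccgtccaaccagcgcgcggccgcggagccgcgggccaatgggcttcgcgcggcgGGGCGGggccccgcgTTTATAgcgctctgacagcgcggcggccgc
EPHA2 promoter, chr1:16156070-16156319: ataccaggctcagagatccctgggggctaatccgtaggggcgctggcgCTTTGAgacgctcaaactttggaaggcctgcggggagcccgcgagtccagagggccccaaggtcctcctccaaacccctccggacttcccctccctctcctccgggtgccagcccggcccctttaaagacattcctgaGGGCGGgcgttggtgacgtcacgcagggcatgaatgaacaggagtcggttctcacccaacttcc
EPHB2 promoter, chr1:22710588-22710837: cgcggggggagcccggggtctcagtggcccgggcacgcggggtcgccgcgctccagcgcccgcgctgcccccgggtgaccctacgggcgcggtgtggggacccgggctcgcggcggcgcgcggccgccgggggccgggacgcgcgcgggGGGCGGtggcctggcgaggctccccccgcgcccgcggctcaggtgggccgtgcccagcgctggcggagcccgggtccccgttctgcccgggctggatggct
EFNB2 and EPHA2 lie on the minus strand and EPHB2 on the plus strand. The EFNB2 promoter held 3 GC boxes, 194, 177 and 45 bases before the start, and a TATA box match at 30 bases. The TATA box match and the GC box at 194 lay on the strand opposite to the gene. EPHA2 held 1 TCF/LEF core, 202 bases before the start, and 1 GC box at 64. EPHB2 held 1 GC box at 101 bases. A GC box match was found in all 9 member promoters and in 42.3% of the 27305 promoters in the RefSeq table. An AP-1 match was found in 0 of the 9 member promoters, against 6.6% of all promoters. TCF/LEF cores occur in 11.4% and TATA box matches in 11.1% of all promoters. The GC content of the 9 ran between 58.4% (EFNA4) and 84.8% (EPHB2), with a median of 58% over all promoters. Such matches describe letters only.

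Each group has 1 library whose name starts with HCT116 and 1 whose name starts with HCT, called the HCT116 set and the HCT set here. What the prefix marks is not stated in the labels. Values are given in that order within a group, and differences between groups are read within a set and in 1 edgeR model with group and set as terms. Libraries held between 13638724 and 17830282 counts. MUC3A itself stood at 24.6 and 30.04 CPM (read counts scaled to a common library size) in KO2, 28.6 and 52.9 CPM in KO1, and 25.1 and 52.7 CPM in WT. Its log2 fold change was −0.43 ± 0.19 in KO2 (SE, 2 libraries a group, edgeR adjusted p = 0.237) and 0.08 ± 0.18 in KO1 (edgeR adjusted p = 0.962). Gene-level counts do not show small insertions or deletions, so this does not check the labels.

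Per transcript length, EPHA2 was the most abundant of the family. As CPM per kilobase (kb) of merged exons, EPHA2 stood at 67.1 and 54.6 in KO2, 136 and 153 in KO1, and 93.4 and 115 in WT. EPHB4, the receptor best known for pairing with ephrin-B2, followed at 54.2 and 39.9 CPM per kb in KO2, 53.9 and 34.6 CPM per kb in KO1, and 57.1 and 38.6 CPM per kb in WT. These levels put EPHA2 at percentile 95.7 and EPHB4 at percentile 88.9 of tested genes in WT.

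The ligands formed a middle band. In WT, EFNA4 stood at 20.7 and 9.89 CPM per kb, EFNB2 at 9.77 and 18.1, EFNB1 at 13.2 and 12.7 and EFNA1 at 12.1 and 10.5 on the same scale. EFNA2, a ligand outside the 10 members, lay among them at 21.6 and 16.0 CPM per kb. EFNA3 was lower, at 7.50 and 5.99 CPM per kb. The crypt receptors EPHB2 (5.30 and 7.14 CPM per kb) and EPHB3 (4.29 and 7.24 CPM per kb) had the lowest means among the members. Going down the order of WT levels, the ranges of the 2 WT libraries were apart between EPHA2 and EPHB4, between EPHB4 and EFNA2, between EFNB1 and EFNA1, and between EFNA1 and EFNA3. Neighbours among EFNA2, EFNA4, EFNB2 and EFNB1 overlapped, as did EFNA3 with EPHB2 and EPHB2 with EPHB3. Merged exons of EPHB2 span 12107 bases and those of EFNA4 1263 bases, so the scaling for length sets much of this order.

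**Figure D1:**
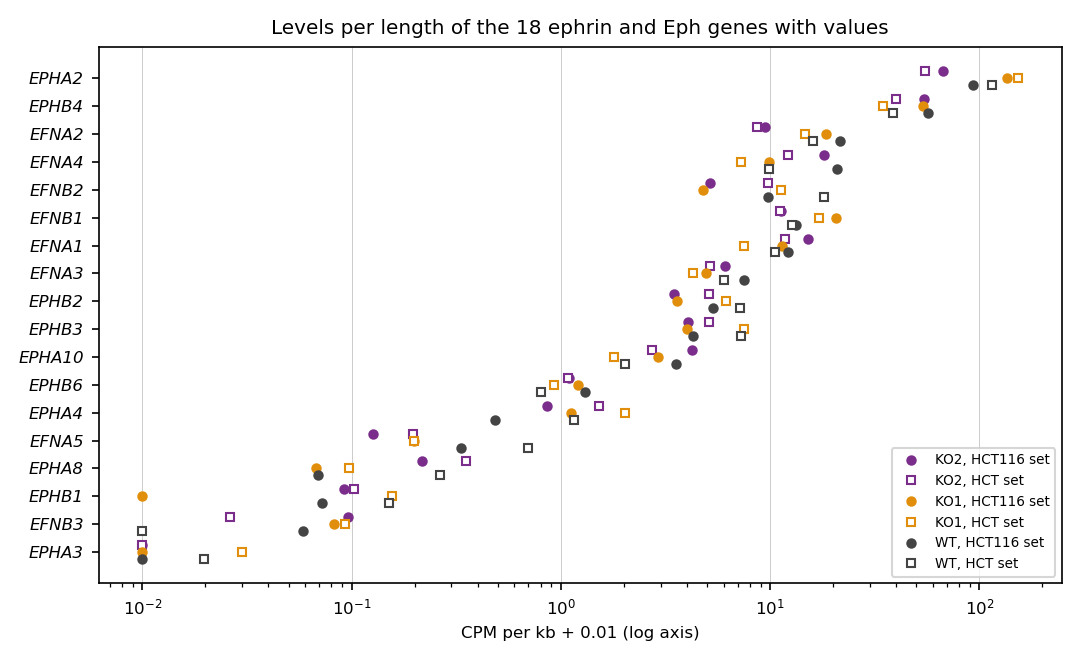
CPM per kb of merged exons plus 0.01, on a log axis, for the 18 ephrin and Eph genes with values, ordered by the WT mean, with 1 symbol per library (filled for the HCT116 set, open for the HCT set). EPHA2 and EPHB4 head the order, with EPHA2 at 67.1 and 54.6 in KO2, 136 and 153 in KO1, and 93.4 and 115 in WT.

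In KO2 against WT, EFNB2, EPHA2 and EPHB2 fell and 0 of the 9 members rose at a Benjamini-Hochberg adjusted p of 0.05 over all 12678 genes. In KO1 against WT, EFNB2 fell and 0 members rose. Between the guides, EPHA2 and EFNB1 were lower and EFNA4 higher in KO2 than in KO1. The same fit called 2.15% of all genes higher and 2.47% lower in KO2 against WT, 0.678% higher and 0.347% lower in KO1 against WT, and 4.24% higher and 5.39% lower in KO2 against KO1. Since the members were picked with these comparisons in view, neither their counts nor any call that held or ended is evidence apart from that choice. The 3 comparisons also share libraries, so they are not independent of each other. At an unadjusted p of 0.05 the counts were 0 higher and 3 lower in KO2 against WT, and 2 higher and 4 lower in KO1 against WT. DESeq2 with the same terms called the same number in each direction, 0 and 3 in KO2 against WT and 0 and 1 in KO1 against WT.

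All of these calls rest on the set term. Without it edgeR called 0 members in each of the 3 comparisons, as did DESeq2, and at an unadjusted p of 0.05 edgeR gave 1 member in KO2 against WT, 0 in KO1 against WT and 2 in KO2 against KO1. The median log2 fold change of the 9 members was −0.26 in KO2 against WT, −0.29 in KO1 against WT and −0.06 in KO2 against KO1, and the median over all tested genes was 0.00 in each comparison with WT.

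**Figure D2:**
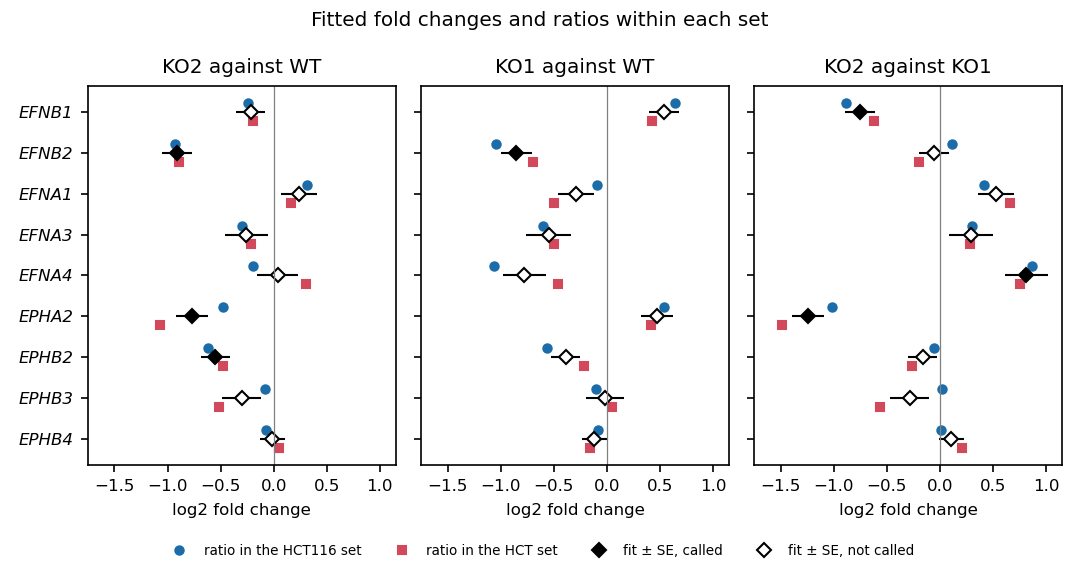
Log2 fold changes of the 9 members in KO2 against WT, KO1 against WT and KO2 against KO1, with diamonds for the fit (bars are 1 SE, filled where called) and coloured symbols for the ratio within each set. EFNB2 is near −0.9 in both comparisons with WT, while EPHA2 is at −0.77 in KO2 and 0.47 in KO1.

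EFNB2 encodes ephrin-B2, a ligand for EphB4 and the other EphB receptors. It had 372 and 934 reads in KO2, 308 and 837 reads in KO1, and 622 and 1391 reads in WT. As CPM this was 25.7 and 48.9 in KO2, 23.8 and 56.1 in KO1, and 48.9 and 90.5 in WT. Within each set both knockout libraries lay below the WT library. Across sets KO2 and WT did not overlap, as for 20.4% of all tested genes. The HCT library of KO2 lay just under the HCT116 library of WT, while the HCT library of KO1 was above that WT library.

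EFNB2 fell 1.88-fold in KO2 against WT (log2 fold change −0.91 ± 0.14, SE, n = 2 libraries a group). The ratio within the HCT116 set was −0.93, with a 95% counting interval of −1.12 to −0.74, and within the HCT set −0.89, with an interval of −1.01 to −0.77. The intervals cover counting error only. In KO1 against WT it fell 1.81-fold (−0.85 ± 0.14, SE), with ratios of −1.04 (−1.24 to −0.84) in the HCT116 set and −0.69 (−0.82 to −0.57) in the HCT set. KO2 and KO1 differed by −0.06 ± 0.15 (SE), which did not pass the threshold. The ratio between the guides was 0.11 in the HCT116 set, where the interval of −0.11 to 0.33 includes 0, and −0.20 in the HCT set, where that of −0.33 to −0.06 does not.

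The call for EFNB2 in KO2 held without each library in turn, at log2 fold changes that stayed negative. The call in KO1 ended without the HCT116 library of KO1 (−0.71), the HCT library of KO1 (−1.03) or the HCT116 library of WT (−0.76). The 3 tested genes named next followed EFNB2 most closely over the 6 libraries once each set was centred. They were KLHDC3, MPV17L2 and NUBP2, with a Pearson r of 0.997, 0.995 and 0.995 among 9791 genes compared. These are descriptions over 6 libraries that share the group differences. They are the highest of 9791 values over few libraries, and how high r would run by chance was not tested.

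**Figure D3:**
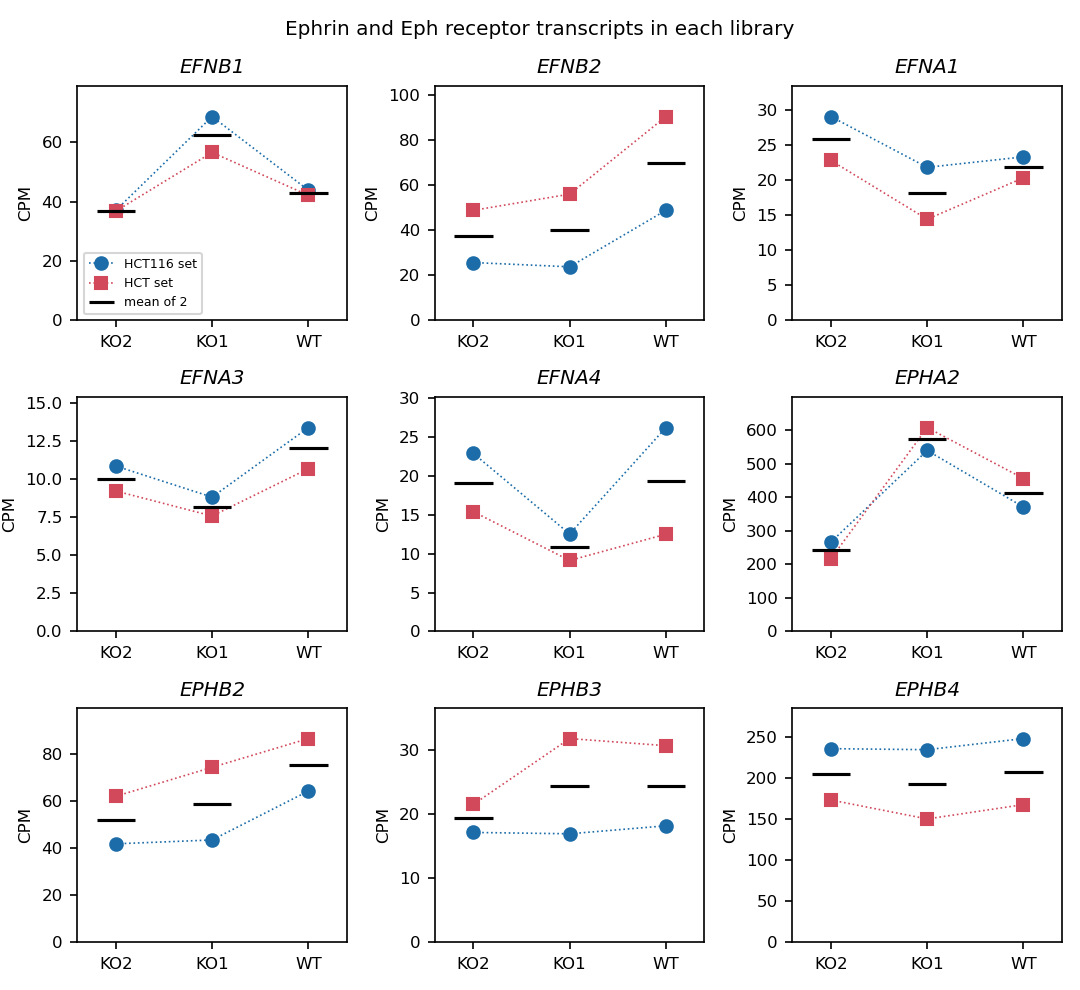
CPM of the 9 members in each library, in KO2, KO1 and WT, with circles for the HCT116 set, squares for the HCT set and black bars for the mean of 2 libraries. EFNB2 is lower in KO2 and KO1 than in WT within each set, EPHA2 runs in the order KO2, WT, KO1 in both sets, and EPHB4 shows a gap between the sets in every group.

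EFNB1 encodes ephrin-B1, the other B-type ligand among the members, and differed between the guides. It had 537 and 704 reads in KO2, 889 and 845 reads in KO1, and 558 and 648 reads in WT. The CPM were 37.1 and 36.8 in KO2, 68.7 and 56.6 in KO1, and 43.9 and 42.2 in WT. The 3 groups did not overlap, with KO1 highest and KO2 lowest, and the sets lay close together. Of all tested genes, 20.4% had no overlap in KO2 against WT, 12.6% in KO1 against WT and 24.8% in KO2 against KO1.

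EFNB1 was 1.69-fold lower in KO2 than in KO1 (−0.75 ± 0.14 in log2, SE, n = 2 libraries a group), with ratios of −0.89 in the HCT116 set and −0.62 in the HCT set. Without the HCT116 library of KO1 this call ended (−0.64). Against WT the fit gave −0.22 ± 0.14 in KO2 and 0.54 ± 0.14 in KO1 (SE), neither past the threshold. Without either KO2 library, the KO1 value did pass.

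The balance of the B-type ligands can be read per length. The ratio of EFNB2 to EFNB1 was 0.458 and 0.878 in KO2, 0.229 and 0.655 in KO1, and 0.737 and 1.42 in WT. Within each set the order was KO1, KO2, WT from low to high, and EFNB2 exceeded EFNB1 in the HCT library of WT only, among the 6 libraries.

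EPHA2 showed the widest difference between guides among the 9 members. It had 3852 and 4138 reads in KO2, 6974 and 9061 reads in KO1, and 4708 and 6997 reads in WT. In CPM it stood at 266 and 217 in KO2, 539 and 607 in KO1, and 370 and 455 in WT. The groups did not overlap and kept the order KO2, WT, KO1 in both sets. Over all tested genes, the share without overlap was 12.6% to 24.8%, depending on the pair of groups.

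EPHA2 was 2.37-fold lower in KO2 than in KO1 (−1.24 ± 0.15 in log2, SE, n = 2 libraries a group), with ratios of −1.02 (95% counting interval −1.08 to −0.96) in the HCT116 set and −1.49 (−1.54 to −1.43) in the HCT set. This call held without each library in turn. Against WT it fell 1.70-fold in KO2 (−0.77 ± 0.15, SE). The ratio was −0.48 (95% counting interval −0.54 to −0.41) in the HCT116 set and −1.07 (−1.13 to −1.02) in the HCT set. The size of this fall thus differed between the sets beyond counting error. With the WT library of the HCT set left out, that call ended at −0.59. In KO1 against WT the value was 0.47 ± 0.15 (SE), with ratios of 0.54 and 0.41, and did not pass the threshold. It passed without either KO2 library.

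EPHA2 also set the make-up of the receptors. Of the summed CPM per kb of the 10 Eph genes with values, EPHA2 made up 49.6% and 49.5% in KO2, 67.1% and 74.2% in KO1, and 56.5% and 66.7% in WT. The ratio of EPHA2 to EPHB4 was 1.24 and 1.37 in KO2, 2.52 and 4.43 in KO1, and 1.64 and 2.98 in WT. The receptor total was 135 and 110.4 CPM per kb in KO2, 203 and 206 CPM per kb in KO1, and 165 and 172 CPM per kb in WT. The total of the 8 ephrin genes with values was 65.3 and 58.9 CPM per kb in KO2, 70.4 and 62.2 CPM per kb in KO1, and 85.3 and 74.0 CPM per kb in WT. Summed receptor transcript thus ran lowest in KO2 and highest in KO1 in both sets, which is the order of EPHA2 itself. The 5 EphB genes alone did not follow that order. They summed to 62.9 and 51.2 CPM per kb in KO2, 62.7 and 49.3 in KO1, and 68.0 and 53.9 in WT. Summed ligand transcript was lower with both guides than in WT, in both sets. These sums are levels, given with no test.

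**Figure D4:**
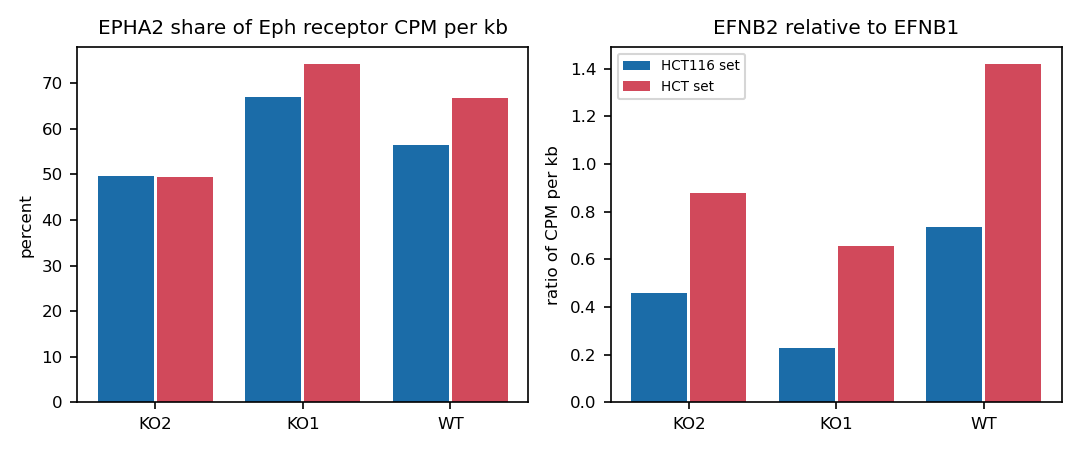
The share of summed Eph receptor CPM per kb that is EPHA2 (left, percent) and the ratio of EFNB2 to EFNB1 in CPM per kb (right) in KO2, KO1 and WT, with 1 bar per library coloured by set. The EPHA2 share is lowest in KO2, at 49.6% and 49.5%, and the EFNB2 to EFNB1 ratio is highest in WT, at 0.737 and 1.42, within each set.

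Epithelial markers moved beside EPHA2 and EFNB1 between the guides. Of 7 markers listed, 6 were tested, and CDH1, KRT8, KRT18 and KRT19 were lower in KO2 than in KO1 and 0 higher (log2 fold changes of −0.46, −0.75, −0.78 and −0.68, edgeR adjusted p of 0.0416, 0.0167, 0.0109 and 0.0275). The same fit called 4.24% of all tested genes higher and 5.39% lower in KO2 against KO1. Without the set term edgeR called 0 genes in that comparison. Against WT, 0 of the 6 markers passed with either guide by edgeR. At an unadjusted p of 0.05, 0 passed in KO2 and 4 were higher in KO1, and DESeq2 with the set term called 0 in KO2 and 3 higher in KO1. The 7 markers summed to 9497 and 5465 CPM in KO2, 15313 and 9024 CPM in KO1, and 8663 and 6615 CPM in WT, and all 7 had counts. Their part in the differences of EPHA2 and EFNB1 was not tested.

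The A-type ligands EFNA1, EFNA3 and EFNA4 lie side by side on chromosome 1. EFNA4 had 331 and 294 reads in KO2, 162 and 136 reads in KO1, and 333 and 192 reads in WT. In CPM these were 22.9 and 15.4 in KO2, 12.5 and 9.11 in KO1, and 26.2 and 12.5 in WT. The KO2 and KO1 libraries did not overlap, as for 24.8% of all tested genes, while WT spread across both.

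EFNA4 was 1.76-fold higher in KO2 than in KO1 (0.81 ± 0.20 in log2, SE, n = 2 libraries a group), with ratios of 0.87 and 0.76 in the HCT116 and HCT sets. Without the HCT116 library of KO1 (0.63) or the HCT library of KO1 (0.99) the call ended. Against WT the value was 0.04 ± 0.19 in KO2, with ratios of opposite sign in the sets (−0.20 and 0.30), and −0.78 ± 0.20 in KO1 (SE). Neither passed the threshold, and the KO1 value passed without either KO2 library or without the HCT library of WT. A readthrough gene spans EFNA4 and EFNA3 in GENCODE, so how their shared reads were counted is uncertain.

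EFNA1 had 420 and 435 reads in KO2, 282 and 215 reads in KO1, and 296 and 312 reads in WT, that is 29.02 and 22.8 CPM in KO2, 21.8 and 14.4 CPM in KO1, and 23.3 and 20.3 CPM in WT. EFNA3 had 157 and 176 reads in KO2, 114 and 113 reads in KO1, and 170 and 164 reads in WT, that is 10.8 and 9.21 CPM in KO2, 8.81 and 7.57 CPM in KO1, and 13.4 and 10.7 CPM in WT. Both were lower in KO1 than in the other groups within each set, and neither passed the threshold between any 2 groups in the fit as reported. Against WT, EFNA1 stood at 0.24 ± 0.17 in KO2 and −0.29 ± 0.17 in KO1, and EFNA3 at −0.26 ± 0.20 in KO2 and −0.55 ± 0.21 in KO1 (log2, SE). In KO2 against KO1, EFNA1 had a value of 0.53 ± 0.17 and EFNA3 of 0.29 ± 0.21 (log2, SE). All 3 A-type ligands among the members thus had positive values between the guides, with EFNA4 past the threshold. EFNA2, an A-type ligand outside the members, went the other way, at −0.86 in KO2 against KO1. EFNA1 also passed with no filter on low counts (0.53), without the KO2 library of the HCT116 set (0.57) or without that of the HCT set (0.51).

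EPHB2, a crypt receptor, had 605 and 1184 reads in KO2, 562 and 1108 reads in KO1, and 816 and 1328 reads in WT. Its CPM were 41.8 and 62.0 in KO2, 43.4 and 74.2 in KO1, and 64.2 and 86.4 in WT. Both KO2 libraries lay below both WT libraries, and KO1 lay between them within each set. KO2 and WT had no overlap, in either direction, for 20.4% of all tested genes.

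EPHB2 fell 1.46-fold in KO2 against WT (log2 fold change −0.55 ± 0.13, SE, n = 2 libraries a group), with ratios of −0.62 (95% counting interval −0.77 to −0.47) in the HCT116 set and −0.48 (−0.59 to −0.37) in the HCT set. The call ended without the KO1 library of the HCT set (−0.55) or the WT library of the HCT116 set (−0.42) or HCT set (−0.67). In KO1 against WT the value was −0.39 ± 0.13 (SE), with ratios of −0.56 and −0.22, and did not pass, except without either KO2 library. Between the guides it was −0.16 ± 0.14 (SE).

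EPHB3, the other crypt receptor, had 248 and 411 reads in KO2, 219 and 474 reads in KO1, and 231 and 471 reads in WT. The CPM were 17.1 and 21.5 in KO2, 16.9 and 31.8 in KO1, and 18.2 and 30.7 in WT. In the HCT116 set the 3 groups were close, while in the HCT set KO2 was lowest. The values were −0.30 ± 0.18 in KO2 against WT, −0.02 ± 0.18 in KO1 against WT and −0.28 ± 0.18 in KO2 against KO1 (log2, SE), none past the threshold. Without the HCT116 library of KO2, EPHB3 passed in KO2 against WT (−0.54) and against KO1 (−0.51).

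EPHB4 had 3415 and 3314 reads in KO2, 3037 and 2244 reads in KO1, and 3156 and 2579 reads in WT. The CPM were 236 and 173 in KO2, 235 and 150.4 in KO1, and 248 and 168 in WT. Groups overlapped throughout, and the HCT116 library was above the HCT library in each. The log2 fold change was −0.01 ± 0.12 in KO2 against WT, −0.12 ± 0.12 in KO1 against WT and 0.11 ± 0.12 in KO2 against KO1 (SE). None passed the threshold. EPHB4 lies on chromosome 7 with 5 coding genes between it and MUC3A, and it overlaps SLC12A9 on the opposite strand, whose reads could not be told apart if counting ignored strand. The same limit applies to EFNB2, EPHA2 and EPHB2, which have annotated antisense transcripts.

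Members differed between the sets at a rate near that of all genes. In the HCT116 set against the HCT set, 3 members were higher and 3 lower, against 31.8% higher and 32.1% lower of all tested genes. EFNB2 (log2 difference −1.01 ± 0.12, SE, n = 3 libraries per set), EPHB3 (−0.66 ± 0.15) and EPHB2 (−0.59 ± 0.11) were lower in the HCT116 set. EFNA4 (0.71 ± 0.16), EPHB4 (0.55 ± 0.10) and EFNA1 (0.38 ± 0.14) were higher there. For EFNB2 this set difference was as large as its difference between either guide and WT. EPHA2 stood at −0.06 ± 0.12, with ratios of the sets of 0.30 in KO2, −0.17 in KO1 and −0.30 in WT.

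Of 12 family genes outside the members, 9 had values and 7 were tested, and EPHA5, EPHA6 and EPHA7 were not analysed here. EFNA2, an A-type ligand, was the 1 gene of the 7 that passed in KO2 against WT. It stood at 8.98 and 8.22 CPM in KO2, 17.5 and 13.9 CPM in KO1, and 20.5 and 15.2 CPM in WT, with both KO2 libraries below all others. EFNA2 fell by 1.04 ± 0.19 on the log2 scale in KO2 against WT (SE, 2 libraries a group, edgeR adjusted p = 0.0113), with ratios of −1.19 and −0.89 in the HCT116 and HCT sets. The call ended without the HCT116 library of WT (−0.93, edgeR adjusted p = 0.115). In KO2 against KO1 it was lower by −0.86 ± 0.19 (edgeR adjusted p = 0.0166), a call that ended without either KO1 library, and in KO1 against WT it was −0.18 ± 0.19 (edgeR adjusted p = 0.881).

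EFNA5 and EPHA4 were scarce. EFNA5 stood at 0.622 and 0.994 CPM in KO2, 1.005 and 1.005 CPM in KO1, and 1.73 and 3.64 CPM in WT. EPHA4 stood at 5.60 and 10.0 CPM in KO2, 7.34 and 13.3 CPM in KO1, and 3.15 and 7.55 CPM in WT. Neither passed: EFNA5 had a log2 fold change of −1.70 ± 0.47 in KO2 (edgeR adjusted p = 0.0680) and −1.37 ± 0.47 in KO1 (adjusted p = 0.313), and EPHA4 0.58 ± 0.24 in KO2 (adjusted p = 0.214) and 0.98 ± 0.24 in KO1 (adjusted p = 0.102). With KO1 against WT, 0 of the 7 genes passed, while 1 was higher and 1 lower at an unadjusted p of 0.05, and DESeq2 with the set term called 0.

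Genes around ephrin and Eph signalling were read from 4 lists. Of 29 tested adaptors and effectors of forward signalling, 1 rose and 1 fell in KO2 and 0 passed in KO1. Of 12 partners of ephrin-B reverse signalling, 1 rose and 1 fell in KO2 and 0 passed in KO1. Of 10 genes of shedding, dephosphorylation and turnover, 0 passed with either guide. Of 12 crypt Wnt and TCF targets, 1 rose and 2 fell in KO2, and 0 rose and 1 fell in KO1. Where edgeR gave 0 in KO1, 0 were higher and 2 lower for forward signalling, 0 and 1 for reverse signalling and 1 and 0 for turnover at an unadjusted p of 0.05, and DESeq2 with the set term gave 0. For turnover in KO2 those were 1 higher and 2 lower, and DESeq2 called 1 lower. The median log2 fold changes of the 4 lists in that order were −0.05, 0.00, 0.05 and −0.19 in KO2, and 0.04, 0.02, 0.12 and −0.08 in KO1. Counting the 7 family genes with them, 8 of 70 tested genes passed in KO2 (11.4%) and 1 in KO1 (1.43%), against 4.61% and 1.03% of all tested genes in either direction. The KO1 share is near that background. The lists were chosen with earlier results of these data known, so neither share is evidence apart from that choice. Without the set term edgeR and DESeq2 called 0 of the 70 in either comparison.

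In forward signalling PIK3R1, the regulatory subunit of PI 3-kinase, stood at 6.22 and 15.3 CPM in KO2, 13.6 and 32.1 CPM in KO1, and 13.7 and 39.8 CPM in WT. It fell by 1.28 ± 0.18 on the log2 scale in KO2 against WT (SE, edgeR adjusted p = 0.00246), and the call held without each library in turn. SHC1, an adaptor of receptor tyrosine kinases, stood at 377 and 281 CPM in KO2, 216 and 143.5 CPM in KO1, and 260 and 199.9 CPM in WT. It rose by 0.51 ± 0.12 in KO2 (SE, edgeR adjusted p = 0.0350), a call that ended without either WT library (0.46 and 0.57 without the HCT116 and HCT ones) or either KO1 library (0.49 and 0.51).

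In reverse signalling SDCBP (syntenin), a PDZ protein that binds ephrin-B tails, stood at 160 and 231 CPM in KO2, 125 and 191 CPM in KO1, and 93.1 and 176 CPM in WT. It rose by 0.58 ± 0.13 (log2, SE, edgeR adjusted p = 0.0281), and not without the HCT library of KO1 (0.59) or the HCT116 library of WT (0.42). DVL1, a Dishevelled scaffold shared with Wnt signalling, stood at 261 and 137 CPM in KO2, 385 and 192 CPM in KO1, and 379 and 184 CPM in WT. It fell by 0.48 ± 0.12 on the log2 scale (SE, edgeR adjusted p = 0.0415), and the call ended without any 1 of the KO1 or WT libraries (−0.50, −0.48, −0.43 and −0.52).

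The crypt Wnt and TCF list did not move one way. RNF43, a ubiquitin ligase that removes Wnt receptors, stood at 35.4 and 27.2 CPM in KO2, 29.6 and 18.96 CPM in KO1, and 67.6 and 44.8 CPM in WT. It fell by 0.83 ± 0.14 in KO2 (log2, SE, edgeR adjusted p = 0.00833) and by 1.21 ± 0.15 in KO1 (edgeR adjusted p = 0.00212). The KO2 call ended without the HCT116 library of WT (−0.78), while the KO1 call held without each library. NOTUM, a secreted Wnt inhibitor, stood at 20.9 and 22.8 CPM in KO2, 48.8 and 32.6 CPM in KO1, and 64.7 and 40.4 CPM in WT, and fell by 1.21 ± 0.19 in KO2 (log2, SE, edgeR adjusted p = 0.00488). That call held without each library in turn. AXIN2, a feedback inhibitor and standard Wnt target, stood at 67.1 and 79.6 CPM in KO2, 40.3 and 25.5 CPM in KO1, and 52.9 and 30.7 CPM in WT. It rose by 0.88 ± 0.22 in KO2 (log2, SE, edgeR adjusted p = 0.0429), with ratios of 0.34 in the HCT116 set and 1.37 in the HCT set. Without the HCT library of KO2 it stood at 0.37 and without the HCT library of WT at 0.58, neither past the threshold. RNF43, NOTUM and AXIN2 are all known as limits on Wnt signalling, and their transcripts differed in direction. Whether they act so in these cells was not tested.

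**Figure D5:**
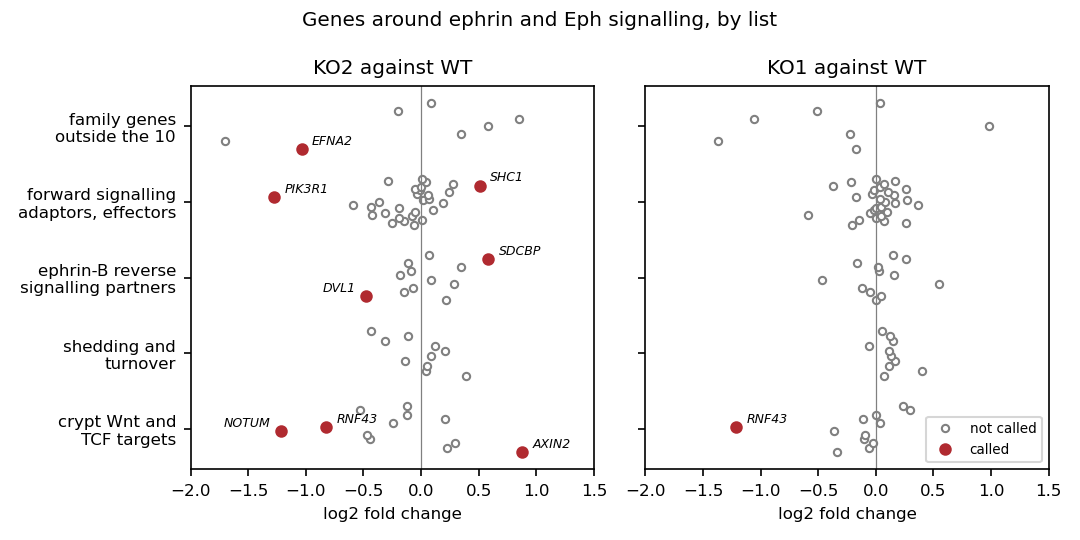
Log2 fold changes of single genes in KO2 against WT and KO1 against WT, 1 point per tested gene, for the 7 family genes outside the members and the 4 lists, with called genes filled and named. In KO2 there are 8 called genes on both sides of 0, and in KO1 RNF43 alone is called.

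Between the guides, 1 of 29 forward signalling genes was higher and 2 lower in KO2 than in KO1. The counts were 0 and 1 of 12 for reverse signalling, 0 and 2 of 10 for turnover, and 1 and 1 of 12 for the crypt list. Of all tested genes, 4.24% were higher and 5.39% lower in that comparison. Lists were chosen with earlier results of these data known, so these counts are descriptions. The turnover genes were the phosphatases PTPN1 (log2 fold change −0.46, edgeR adjusted p = 0.0334) and PTPRF (−0.48, edgeR adjusted p = 0.0371), named after their values were seen. In forward signalling SHC1 was higher in KO2 than in KO1, by 0.88 (edgeR adjusted p = 0.000915), and this ended without the HCT library of KO1 (0.79). PIK3R1 had a log2 fold change of −1.10 (edgeR adjusted p = 0.00276), a call that held without each library in turn. AXIN2 stood at 1.21, NOTUM at −0.85 and DVL1 at −0.52 (edgeR adjusted p = 0.00514, 0.0177 and 0.0168). The AXIN2 call ended without the HCT library of KO1 (1.01), and those of NOTUM and DVL1 without either KO1 library.

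Markers of other cells were low, apart from COL1A1 among the fibroblast markers. Endothelial markers, 6 of 9 with counts, summed to between 11.1 and 14.8 CPM over the 6 libraries. Fibroblast markers, 4 of 8, summed to between 35.4 and 67.5 CPM, and leukocyte markers, 7 of 8, to between 6.65 and 22.1 CPM. Most of the fibroblast sum was COL1A1, named after its value was seen. COL1A1 stood at 54.4 and 66.4 CPM in KO2, 34.3 and 63.1 CPM in KO1, and 42.4 and 65.7 CPM in WT. Of all these markers, 0 passed with either guide against WT by edgeR. At an unadjusted p of 0.05, 1 fibroblast marker was higher with each guide and 2 leukocyte markers were higher in KO1, of which DESeq2 with the set term called 1. CD68, a macrophage marker named after its value was seen, was lower in KO2 than in KO1 (log2 fold change −1.25, edgeR adjusted p = 0.0248).

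In the authors' deposited table, 0 of the 9 members had an adjusted p under 0.05 in either comparison with WT. Their adjusted p was 0.999994 for all 9 in KO1 and 0.999996 for all 9 in KO2. The smallest unadjusted p they gave was 0.155 in KO1 and 0.0690 in KO2. DESeq2 without the set term gave members a smallest adjusted p of 0.999984 in KO1 and 0.999978 in KO2. With the set term these were 0.000557 and 3.79e-05. The deposited adjusted p thus lay near those of the fit without the set term. How the authors modelled the sets is not stated.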

How the data were processed

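Poly(A) RNA was sequenced in 6 libraries. The authors deposited raw read counts per gene symbol in 2 tables, 1 per guide, each with the same WT columns; they were joined on 15284 shared genes. The deposited log2 fold changes and p-values are the authors' own comparison with WT, per the file headers. STAR, HTSeq 0.6.0, DESeq2 and hg18 are named, per the submitters' processing notes, with no role or order. Another 40 per-sample columns were not used. Strand use in counting is not stated.

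Counts were tested as deposited with edgeR 4.0.16 in R 4.3.3: TMM normalization, filterByExpr with a minimum count of 10 (12678 genes), glmQLFit and glmQLFTest on all 6 libraries with group and name prefix as terms (2 residual degrees of freedom), and Benjamini-Hochberg adjustment at 0.05. A gene is called when it passes. SE was taken as the log2 fold change over the root of F, without sign. DESeq2 1.42.0 was an alternative. CPM use TMM-scaled library sizes, log2 CPM a prior count of 2. To compare levels between genes, CPM were divided by merged exon length in kb (GENCODE v29 basic set, all 15284 genes matched by symbol). Within-set ratios have 95% exact (Clopper-Pearson) intervals, which cover counting error only. With 1 library per guide and set, a guide by set interaction could not be fitted.

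The prefix pairs libraries across groups: deviations from group means correlated across genes at 0.783 between KO2 and KO1, 0.815 between KO2 and WT and 0.867 between KO1 and WT. Replicate numbers in the labels matched no column name. Libraries of 1 group were not copies (chi-square per degree of freedom of 91.5 in KO2, 119 in KO1 and 142 in WT). Depth was 13638724 to 17830282 counts.

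Members and lists were chosen with earlier results of these data known. All members are named, and of the other lists the genes that passed against WT. EFNA5, EPHA4, COL1A1 and the genes named between guides were added after their values were seen. Likeness to EFNB2 was Pearson's r of log2 CPM centred within sets, over genes averaging log2 CPM 3 or more. The edgeR fit of KO2 against WT was tested on simulated counts. These were drawn with the same set and group terms and the fitted spread, so this does not check that model against the data. The other steps were not tested this way. Promoters are from RefSeq (GRCh38.p14), and all 9 members matched by symbol. Gene order, overlaps and guide positions are from GENCODE on GRCh38.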

Additional observations from a re-analysis of the deposited data

How the results depend on the processing

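The pairing of libraries by name prefix decided every call of a member between groups. Without the name prefix as a term, here the block, edgeR called 0 members in KO2 against WT (3 with it) and 0 in KO1 against WT (1 with it). In KO2 against KO1 it called 0 (3 with the block). At an unadjusted p under 0.05 it gave 1, 0 and 2 members in that order. DESeq2 without the block, an alternative chosen after seeing the data, also called 0 in each. The family and pathway lists then had 0 calls in KO2 (8 with the block) and 0 in KO1 (1 with it) in both tools. Over all genes the unblocked fit called 0 in each comparison by edgeR, against 585, 130 and 1220 with the block, and 40, 17 and 110 by DESeq2. With no filter on low counts, 2 members (EFNA4 and EFNB2) and 2 list genes passed in KO1, 4 members in KO2 against KO1 (EFNA1 added), and the calls over all genes were 949 in KO2 and 316 in KO1. With 1 library left out, the lone library of its group was assumed to vary like the others. Members called then ranged between 1 and 4 in KO2 against WT, 0 and 5 in KO1 against WT, and 1 and 5 in KO2 against KO1. List genes ranged between 3 and 23 in KO2 and between 1 and 6 in KO1. Calls over all genes ranged between 317 and 2170, 69 and 901, and 391 and 3202; the highest counts came without a KO2 library, and the cause was not tested. The set comparison gave 5 to 7 member calls, against 6, with EFNA1 or EFNA4 lost in some settings and EPHA2 gained in 1. RLE normalization, a minimum count of 50 and DESeq2 with the block gave 3, 1 and 3 member calls. Over single genes, 76 values lost and 15 gained a call, with no change of sign, and 403 kept both sign and side of the threshold. The other 10, for 4 members past the threshold in neither fit, turned sign: EFNA4 in KO2 against WT (0.04 as reported, −0.22 without the WT library of the HCT set and −0.02 without the block among them), EPHB4 in KO2 against WT (−0.01 as reported, up to 0.07), EPHB3 in KO1 against WT (−0.02 as reported, up to 0.14) and EFNB2 in KO2 against KO1 (−0.06 as reported, up to 0.12). Limits: 2 libraries per group, a prefix the labels do not explain, and few reads for EFNA3 (113 to 176 per library).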
